A study of Mus musculus with 8 samples.

Results

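The m6A peaks of 10 receptor tyrosine kinase genes were described in mouse embryonic fibroblasts (MEFs), primary fibroblasts cultured from embryos. The 10 genes were Pdgfra, Pdgfrb, Fgfr1, Fgfr2, Egfr, Met, Axl, Ddr1, Ddr2 and Ror2, of which Fgfr1 and Fgfr2 encode fibroblast growth factor receptors and the others belong to related receptor families. A peak was a member when the authors' gene name for it was one of these 10, which gave 81 of 38705 peaks, and the 10 genes were among 9779 genes with a peak. MeRIP-seq, the immunoprecipitation of RNA fragments with an antibody to N6-methyladenosine (m6A), compared control MEFs, left untreated in full medium, with starved MEFs, kept in nutrient-deprived medium for 2 h. All cells were wild type, of the C57BL/6 strain, taken at 13.5 days post-coitum and used after 5 to 6 passages. Each of the 2 conditions had 2 immunoprecipitated (IP) libraries and 2 input libraries, 8 samples in all, and peaks were available for the 4 IP libraries. The study calls the replicates biological, and whether they came from separate embryos or separate cultures of the same cells is not given in the sources used here, so p-values measure the spread between these samples only.

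Receptor tyrosine kinases are membrane proteins that bind a ligand outside the cell, pair up and phosphorylate one another on tyrosines, after which adaptor proteins pass the signal to the Ras–ERK and phosphatidylinositol 3-kinase pathways. In fibroblasts some of them carry growth signals of serum. m6A is placed on adenosines within a short sequence context, of which GGAC, with the A methylated, is a common form, and across mRNAs it is known for its gathering in long exons and near stop codons.

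The following 25-nt windows are shown because the results below turn on the regions they come from. Each was read 5′ to 3′ on the transcribed strand of GRCm38 (RefSeq), the assembly of mm10, around the GGAC nearest to the middle of the part of the region that all its peaks share, and the capitals mark GGAC. In Met no stretch was shared by all peaks, and the GGAC nearest to the middle of the whole region was taken.
Fgfr1, exon 1, 5′ UTR (chr8:25519014-25519038, plus strand): cggagaccgaGGACttttctcaggt
Pdgfra, exon 22, coding (chr5:75192561-75192585, plus strand): aaggtggcctGGACgaacagagact
Pdgfra, exon 23, 3′ UTR (chr5:75195495-75195519, plus strand): tctcctctccGGACctctgaagaga
Fgfr2, exon 3, coding (chr7:130242489-130242513, minus strand): cccaacaataGGACagtgcttattg
Fgfr2, exon 18, 3′ UTR (chr7:130163666-130163690, minus strand): tgccccagttGGACtcaaggcagac
Ddr2, exon 17, 3′ UTR (chr1:169977330-169977354, minus strand): tttctgatttGGACgtgactctcag
Met, exon 3, coding (chr6:17491794-17491818, plus strand): tgtcggaaaaGGACcggttcatcaa
The peaks, 200 to 2784 bp long, do not resolve the methylated base, so each window shows 1 candidate position and not a mapped site. The part shared by all peaks held 7 GGAC over 671 nt in Fgfr1 exon 1, 3 over 205 nt in Pdgfra exon 22, 3 over 707 nt in Pdgfra exon 23 and 3 over 201 nt in Fgfr2 exon 3.

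All 10 genes carried at least 1 peak, and 8 of them carried a peak in every library, all but Axl and Ddr1. Among all genes with a peak, 29.2% did so. The lists held 18 and 22 member peaks in control replicates 1 and 2, and 23 and 18 in starved replicates 1 and 2. The groups overlapped, with 20 ± 2.83 peaks in control and 20.5 ± 3.54 in starved MEFs (SD, n = 2 each; exact two-sided permutation p = 1). With 2 libraries a group the smallest p this test allows is 0.33, so no such comparison could reach 0.05. The whole lists held 10103 and 9871 control and 9757 and 8974 starved peaks.

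A peak's fold enrichment is the authors' ratio of IP signal to the matching input background, so it is a level within 1 library, and the lists give no read depth or transcript level. Member peaks ranged from 2.96-fold to 109.46-fold, with a median of 11.58. The authors' false discovery rate of member peaks ran from 7.52% to 78.25%, and several low peaks had high rates. It was 63.03% for the 2.96-fold Ddr1 peak, 70.97% for the 3.02-fold Pdgfrb peak and 75.72% for the 3.09-fold Egfr peak. The Axl peaks of 4.32- and 4.17-fold had 34.3% and 74.51%. High rates were not confined to the lowest peaks, with 59.94% for the 7.22-fold Egfr peak and 52.4% for the 8.1-fold Met peak of starved replicate 2. On the log2 scale the median member peak stood at 3.13 and 3.68 in control replicates 1 and 2, and at 3.60 and 3.70 in starved replicates 1 and 2. The difference of 0.25 was within the spread between replicates (exact two-sided permutation p = 0.67), and it was −0.010 once the median of all peaks of each library was subtracted. The plot of every member peak by gene shows that peaks of 1 gene in 1 library differed by more than the libraries did.

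**Figure D1:**
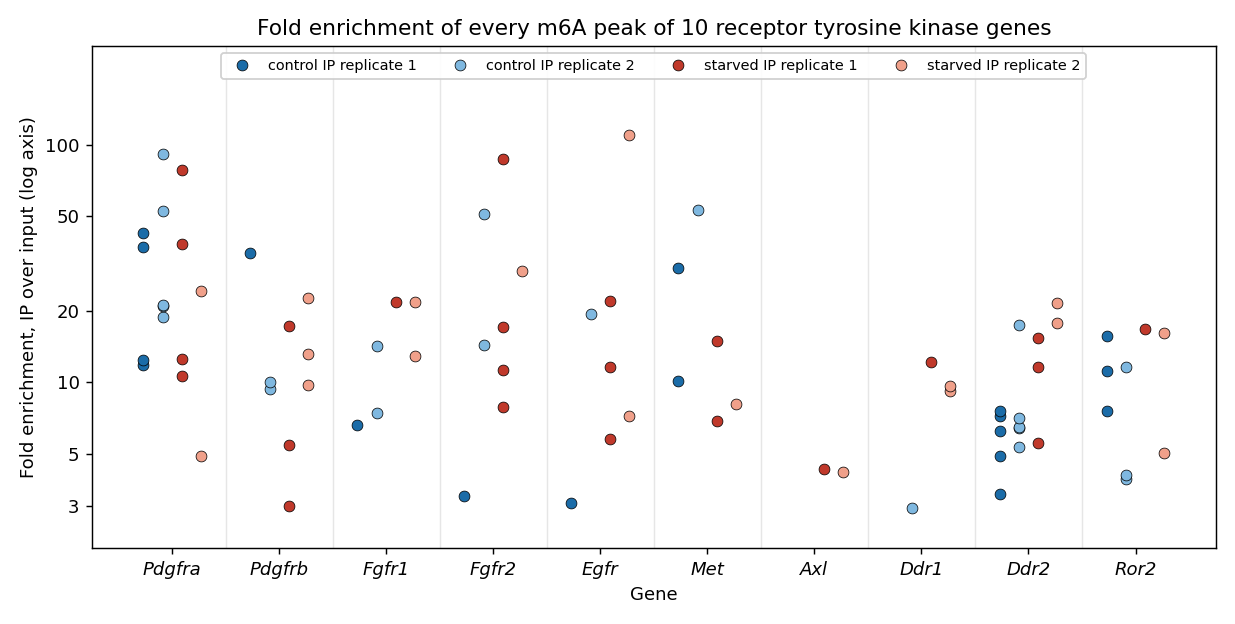
Fold enrichment of IP over input (vertical, log axis) for each of the 81 peaks of the 10 genes (horizontal), 1 point a peak, coloured by library. Axl had 2 peaks, both of starved libraries and near 4-fold, whereas Pdgfra and Ddr2 had 15 each, and the highest point is the 109.46-fold Egfr peak of starved replicate 2.

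The PDGF receptors, which bind platelet-derived growth factors and mark fibroblasts, differed in how many peaks they carried. Pdgfra had 4 and 5 peaks in control replicates 1 and 2, and 4 and 2 in starved replicates 1 and 2. Pdgfrb had 1 and 2 peaks in control and 3 in each starved library. Joining peaks that overlap by at least 1 bp gave 6 regions in Pdgfra and 4 in Pdgfrb.

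Exon 22 of Pdgfra, the last but one of 23 exons and wholly coding, was a peak in all 4 libraries (chr5:75192431-75192672). Its fold enrichment was 37.04 and 52.56 in control replicates 1 and 2, and 78.19 and 4.87 in starved replicates 1 and 2. The control values lay between the starved ones, so the groups overlapped, and starved replicate 2 alone was low. That low peak had a false discovery rate of 56.29%. The 3′ UTR region of Pdgfra, in exon 23 (chr5:75194953-75196120), had 42.57- and 18.82-fold in control and 38.32- and 24.22-fold in starved MEFs, again overlapping. It also took in the end of the coding sequence, with 148 bases in the peak of control replicate 2 and 130 and 148 in those of starved replicates 1 and 2. A peak in exon 3 (chr5:75163615-75163852), among the first coding exons, appeared in both control libraries, at 12.42- and 21.22-fold, and in neither starved one. That region of 238 bp held no GGAC. Further down the 3′ UTR a peak was called at 11.79-, 20.88- and 12.50-fold in control replicates 1 and 2 and starved replicate 1, and not in starved replicate 2. Exon 4 gave a 91.55-fold peak in control replicate 2 alone.

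In Pdgfrb the last exon, holding the end of the coding sequence and the 3′ UTR, was the region found in all 4 libraries. It reached 34.81- and 10.05-fold in control replicates 1 and 2, and 17.22- and 9.72-fold in starved replicates 1 and 2. The groups overlapped, with starved replicate 1 between the control values. Exon 4 of Pdgfrb was a peak at 9.32-fold in control replicate 2 and at 3.02- and 22.53-fold in starved replicates 1 and 2.

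The FGF receptors had fewer peaks. Fgfr1 had 1 and 2 in control and 1 and 2 in starved MEFs, and its peak at exon 1, in the 5′ UTR, covered the same whole exon in all 4 libraries (chr8:25518759-25519429). There the fold enrichment was 6.62 and 14.24 in control replicates 1 and 2, and 21.79 and 21.65 in starved replicates 1 and 2. Each starved value exceeded each control value, which held for none of the other member regions with 4 peaks. Among all regions with 4 peaks 22.9% had this order and 18% the opposite one, so 1 of 7 is no more than the background. The 3′ UTR of Fgfr1 was a peak in control replicate 2 (7.44-fold) and starved replicate 2 (12.91-fold).

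Fgfr2 had 1 and 2 peaks in control replicates 1 and 2, and 4 and 1 in starved replicates 1 and 2, with no region common to all libraries. Its exon 3 (chr7:130242378-130242644) encodes the first immunoglobulin-like loop of the receptor, which alternative splicing can leave out, and was an exon in 6 of 17 coding transcripts in GENCODE. This exon was a peak at 7.83- and 29.38-fold in starved replicates 1 and 2 and in neither control library. The 3′ UTR (chr7:130163093-130163866) showed the opposite, with 3.33- and 14.35-fold in control replicates 1 and 2 and no peak after starvation. The 3.33-fold peak had a false discovery rate of 78.25%, the highest of all member peaks, so this pattern rests partly on a weakly called peak. Exon 2, with the start of the coding sequence, was a peak in 1 library of each group, at 51.05-fold in control replicate 2 and 17.08-fold in starved replicate 1. Starved replicate 1 alone held an 86.87-fold peak (chr7:130241074-130241277) that met an exon in 8 of the 17 coding transcripts.

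Egfr, the receptor of epidermal growth factor and its relatives, had 1 peak in each control library and 3 and 2 in starved replicates 1 and 2. Peaks along its long 3′ UTR (chr11:16911819-16913218) reached 3.09-fold in control replicate 1, 21.93-fold in starved replicate 1 and 7.22-fold in starved replicate 2, and control replicate 2 had none. The peaks shared no common stretch, and the peak of starved replicate 1 at the place of the control peak stood at 11.57-fold. The highest member peak of all, 109.46-fold, covered part of the last exon of a shorter Egfr transcript (chr11:16887141-16887341) and was called in starved replicate 2 alone. Met, the receptor of hepatocyte growth factor, had 2 and 1 peaks in control and 2 and 1 in starved MEFs. Its large exon 3 (chr6:17491227-17492437) gave 10.08- and 52.87-fold in control and 14.87- and 8.10-fold in starved replicates, with overlapping groups. Those peaks met through that of starved replicate 1, and the peak of starved replicate 2 touched neither control peak. The end of the Met 3′ UTR was a peak in control replicate 1 (30.28-fold) and starved replicate 1 (6.88-fold).

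Axl, which binds Gas6 and protein S, had the fewest peaks, 1 of 4.32-fold in exon 7 in starved replicate 1 and 1 of 4.17-fold in exon 1 in starved replicate 2. These lay in different exons, so no place on Axl was found more than once.

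The discoidin domain receptors, which bind collagen, differed from each other. Ddr1 had no peak in control replicate 1, 1 in control replicate 2, and 1 and 2 in starved replicates 1 and 2. Its last exon, mostly 3′ UTR (chr17:35681703-35682518), reached 2.96-fold in control replicate 2 and 12.15- and 9.65-fold in starved replicates 1 and 2. Ddr2 had 5 peaks in each control library and 3 and 2 in starved replicates 1 and 2. Its region found in all 4 libraries reached from the end of the coding sequence into the 3′ UTR (chr1:169976500-169977961). It stood at 7.59 and 17.35 in control and at 15.40 and 17.82 in starved replicates, and the groups overlapped. Coding exon 15 of Ddr2 was a peak at 4.91- and 6.47-fold in control and at 21.46-fold in starved replicate 2. Coding exon 4 was a peak at 7.23- and 7.05-fold in control and at 11.58-fold in starved replicate 1. In both exons the starved value exceeded the control ones, but it came from 1 library each time.

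Ror2, a receptor of Wnt5a, had 3 peaks in each control library and 1 and 2 in starved replicates 1 and 2. Its last exon (chr13:53109530-53111668) held 7 peaks that joined into 1 region, of which the highest stood at 15.64 and 11.56 in control and at 16.71 and 5.04 in starved replicates. These groups overlapped. No stretch was common to all 7 peaks, but chr13:53109866-53109899 lay within a peak of every library. The 11.56-fold peak of control replicate 2 did not touch the 5.04-fold peak of starved replicate 2, and at the place of the latter control replicate 2 stood at 4.05-fold.

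**Figure D2:**
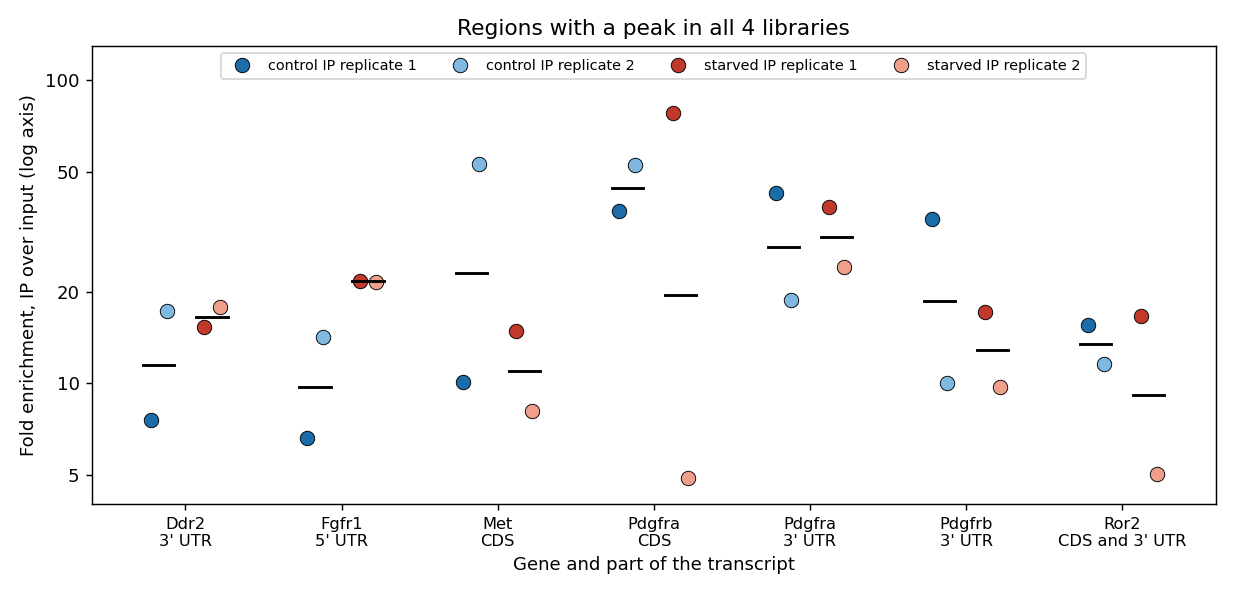
Fold enrichment of IP over input (vertical, log axis) in the 7 member regions with a peak in all 4 libraries (horizontal, gene and part of the transcript), 1 point a library, with bars at the mean of the log values of each group. The control and starved points overlap in every region except the Fgfr1 5′ UTR, where 21.79 and 21.65 lie above 6.62 and 14.24.

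Of the 35 member regions, 15 were found in 1 library, 6 in 2, 7 in 3 and 7 in all 4. Across all 21168 regions the corresponding shares were 56.2%, 21%, 12.2% and 10.7%. Starvation was tested in the 7 regions found in all 4 libraries with limma on log2 fold enrichment, fitted over all 2257 such regions. None of the 7 passed an adjusted p of 0.05, and none had an unadjusted p under 0.05. In the same fit 0% of all regions rose and 0.0886% fell after adjustment, and at an unadjusted p under 0.05 5.05% were higher and 4.12% lower. The differences, starved minus control, were 1.16 ± 0.80 (SE) for the Fgfr1 5′ UTR (limma adjusted p = 0.68), −1.18 ± 1.17 for Pdgfra exon 22 (0.77) and −1.07 ± 0.96 for Met (0.74). The Fgfr1 difference was 0.61 without control replicate 1 and 1.71 without control replicate 2. Standard errors of 0.78 to 1.17 on the log2 scale stood behind these values, so the absence of a call does not show that a region stayed the same. The median difference was −0.53 over the 7 regions and 0.10 over all 2257.

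One region was found in both starved and neither control library, Fgfr2 exon 3, where 3.2% of all regions had this pattern. In the opposite direction there were 2, Pdgfra exon 3 and the Fgfr2 3′ UTR, against 4.15% of all regions. With peaks of at least 4-fold alone the counts became 3 in starved and 1 in control MEFs. With any 1 of the 4 libraries left out they ranged from 2 to 8 and from 3 to 7, where the group that lost a library needed 1 peak only. The share of all regions under these settings is not given here, so these counts have no background beside them. A missing peak was not shown to be missing m6A, and less m6A and less RNA cannot be told apart in lists without transcript levels.

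None of the 77 member peaks that could be placed on the longest coding transcript had its centre within 100 nt of the stop codon. Among all placed peaks the share was 12.5% and 11.9% in control and 11.6% and 12.2% in starved replicates. The nearest member centres, both in control libraries, lay 162 nt past the stop codon in Ror2 and 170 nt past it in Ddr1. Yet 15 of the 77 peaks (19.5%) covered the stop codon, compared with 26.0% of all placed peaks, with their centres farther off. The centres fell in the 5′ UTR for 9 peaks (11.7%, against 4.50% of all), in the coding sequence for 33 (42.9%, against 46.5%) and in the 3′ UTR for 35 (45.5%, against 37.0%). These shares describe a small group of genes in which peaks of the 4 libraries often repeat the same place, and they were not tested.

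**Figure D3:**
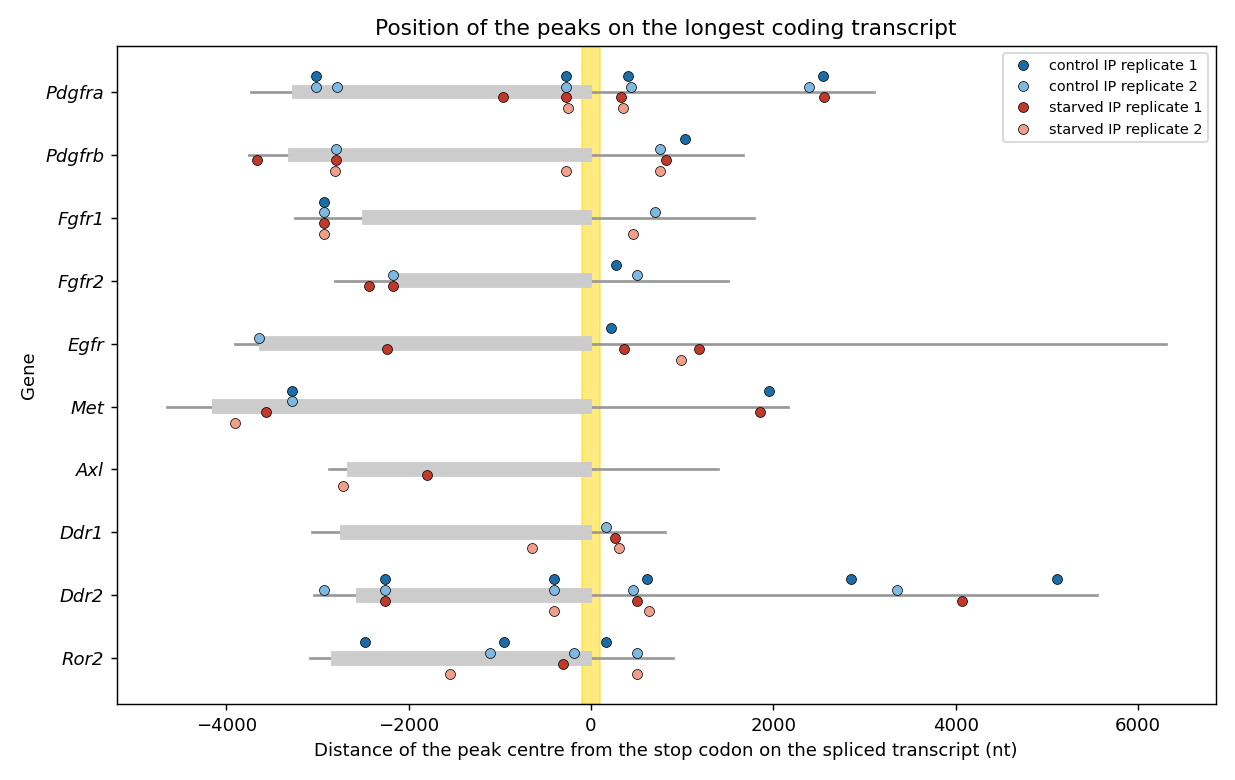
Distance of each placed peak centre from the stop codon in nt (horizontal, negative upstream) for the 10 genes (vertical), with the coding sequence as a thick bar, the UTRs as a thin line and 1 point a peak, coloured by library. The band reaching 100 nt to each side of the stop holds 0 of the 77 points.

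Peak edges often coincided with exon edges. Of the 81 member peaks, 47 began or ended at an exon edge of a GENCODE transcript and 23 covered exactly 1 whole exon, by the RefSeq transcript named in the lists, among them all 4 at Fgfr1 exon 1. The listed position of such a peak is that of the exon, so a difference in position between libraries could not be read there.

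GGAC lay within 200 nt at the peak centre in 55.6% and 59.1% of placed member peaks in control replicates 1 and 2, and in 76.2% and 75.0% in starved replicates 1 and 2. Over all placed peaks the control libraries gave 62.3% and 63.7% and the starved ones 64.7% and 64.8%. The member groups did not overlap, with 57.3 ± 2.50% in control and 75.6 ± 0.84% in starved MEFs (SD, n = 2 each; exact two-sided permutation p = 0.33, the smallest possible). In windows of 100 nt the difference turned round, from 18.3 to −4.72 percentage points, so its direction rests on the window. GGAC was searched on the transcribed strand alone.

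A score of 3100 or more, close to the highest the caller gave, was reached by 3 of 18 and 3 of 22 member peaks in control replicates 1 and 2, and by 8 of 23 and 8 of 18 in starved replicates 1 and 2. These are 16.7%, 13.6%, 34.8% and 44.4%, and the groups did not overlap. All peaks moved the same way, from 17.0% and 13.2% in control to 28.5% and 27.8% in starved libraries. The score is minus 10 times log10 of the p-value and grows with read depth, which the lists do not give, so the part of depth in this shift was not tested.

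**Figure D4:**
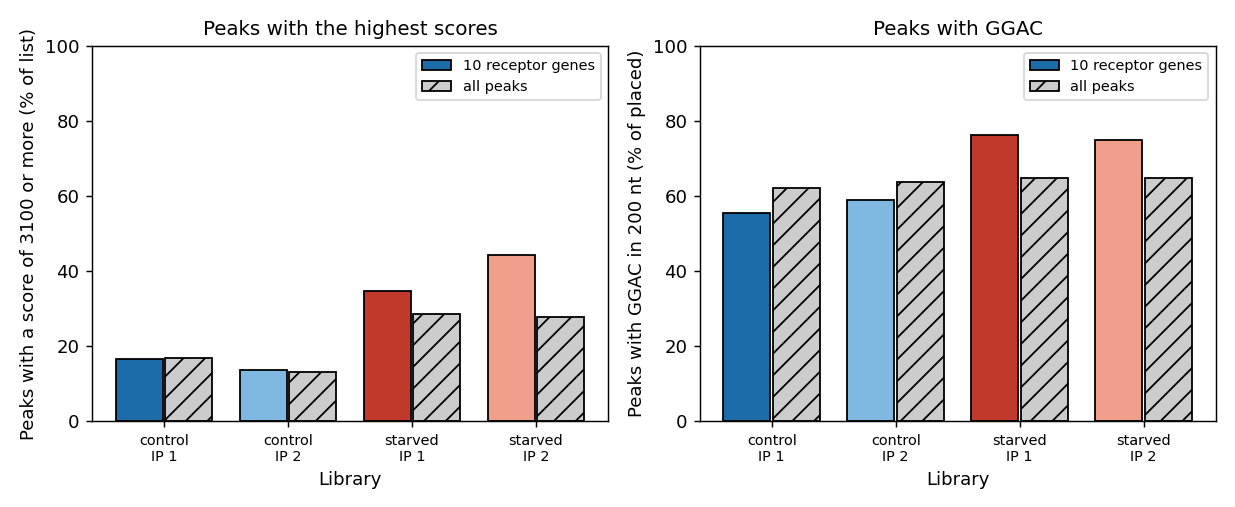
Share of peaks with a score of 3100 or more (left, % of the list) and share of placed peaks with GGAC within 200 nt at the centre (right, %), in each library (horizontal), for the 10 receptor genes (coloured bars) and all peaks (hatched grey bars). Both shares are higher in the starved than in the control bars of the receptor genes, whereas the grey bars differ between conditions for the score and little for GGAC.

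Other genes of the pathway were read from lists, with values for the region whose groups differed most without overlapping. Of 48 other receptor tyrosine kinases, 23 had a peak and 10 had one in every library. Of their 8 regions in all 4 libraries, 4 had both starved above both control values and 0 the reverse, 2 of these in Igf1r and 1 each in Insr and Flt1, where the background was 22.9% and 18%. The one with the largest difference, Insr, the insulin receptor (chr8:3153306-3154774), stood at 15.88 and 12.60 in control and at 32.16 and 29.21 in starved replicates, a difference of 1.12 ± 0.75 (SE; limma adjusted p = 0.67). Igf1r, the receptor of insulin-like growth factors and named after its values were seen, stood at 3.61 and 5.40 in control and at 9.78 and 9.02 in starved replicates in 1 of its regions. Of the 80 regions of these receptors, 3 were found in both control and neither starved library, 2 in Epha4 and 1 in Ephb2, and 1 the other way round, in Insr, against 4.15% and 3.2% of all regions, and these were likewise named after their values were seen. No region of any of the 4 lists passed limma.

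Of 25 ligands, 16 had a peak, in 35 regions. Of these, 3 regions (8.57%) were found in both starved and neither control library and 2 (5.71%) the other way round, beside 3.2% and 4.15% of all regions. The 3 all lay in 1 gene, Col5a1, a fibrillar collagen chain of the kind that discoidin domain receptors bind, and the 2 in Col3a1 and Hbegf, all named after their values were seen. In another region Hbegf, an Egfr ligand, stood at 10.23 and 9.62 in control and at 24.82 and 17.16 in starved replicates (1.06 ± 0.77, limma adjusted p = 0.69). Of the 3 ligand regions in all 4 libraries, this was 1 with both starved above both control values, and 1, in Pdgfa, had the reverse order. The shares over all regions with 4 peaks were 22.9% and 18%. Of 16 adaptors and effectors, 15 had a peak. Pik3ca, the catalytic subunit of phosphatidylinositol 3-kinase, stood at 21.94 and 6.86 in control and at 42.70 and 23.81 in starved replicates (1.38 ± 0.87, adjusted p = 0.66). It was the only 1 of the 7 adaptor regions in all 4 libraries with this order, beside 22.9% of all such regions. Against a background of 18%, 2 had the reverse. These 2 were Pik3r1, a regulatory subunit of the same kinase, at 222.39 and 133.61 in control and 64.90 and 102.20 in starved replicates (−1.08 ± 0.64, adjusted p = 0.65), and Sos1, a Ras exchange factor, at 458.63 and 668.96 against 201.66 and 436.18 (−0.90 ± 0.59, adjusted p = 0.67), both named after their values were seen. Of the 39 adaptor regions, 3 (7.69%) were found in both control and neither starved library, beside 4.15% of all regions. The other way round there was 1 (2.56%), beside 3.2%.

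Of 16 negative regulators, 15 had a peak, in 34 regions. In this list 6 regions (17.6%) were found in both control and neither starved library, compared with 4.15% of all regions, and 1 in the starved libraries alone, in Cbl. The 6 lay in Spry1, Spry2, Spry4 and Spred3, of the Sprouty and Spred inhibitors of Ras–ERK signalling, and in Nf1, a Ras GTPase activator, and Lrig1, an antagonist of receptor kinases. They were named after their values were seen, and the list was chosen with earlier results of these data known. The share was not tested. Spry1 had 22.62 and 11.93, Spry4 25.71 and 14.13 and Spry2 10.16 and 6.18 in control replicates 1 and 2, with no peak in either starved library. Lrig1 had 22.32 and 57.63, Nf1 3.46 and 5.5 and Spred3 7.02 and 3.94. Nf1 and Spred3 thus each had a control peak under 4-fold. In Spred2 the values lay in the other order, at 11.12 and 11.11 in control and 33.21 and 25.89 in starved replicates (1.40 ± 0.76, limma adjusted p = 0.63). This was 1 of the 3 regions of the list found in all 4 libraries, and 0 had both starved below both control values. Over all such regions the shares were 22.9% and 18%. Across regions in all 4 libraries the median difference was 0.58 for the other receptors (8 regions) and 0.77 for ligands (3 regions). It was −0.01 for adaptors (7 regions) and −0.04 for negative regulators (3 regions), beside 0.10 for all 2257 regions. These medians rest on few regions and were not compared by a test.

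Of 14 fibroblast markers 8 had a peak, and Prrx1 and Twist1 had one in every library, as did Pdgfra and Pdgfrb. Col1a1, Vim, Dcn, Lum, Fap and S100a4 had none, and a peak list shows m6A and not expression. Markers of other cell types had peaks too, in 2 of 4 epithelial genes (Krt8 and Krt18, but not Cdh1 or Epcam), 2 of 4 endothelial genes (Tek and Kdr, but not Cdh5 or Pecam1), 1 of 3 haematopoietic genes (Cd68, but not Ptprc or Csf1r) and 3 of 3 neural genes, of which Nes and Sox2 had one in every library. A region of Krt18 stood at 10.89 and 24.17 in the control libraries and had no peak in the starved ones. The part of other cell types in the results was not tested.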

How the data were processed

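MeRIP-seq libraries of control MEFs and of MEFs starved for 2 h were grouped by GEO's titles, with 2 IP libraries a group. Per the study's methods, the authors removed adapters (Cutadapt), mapped reads to mm10 (HISAT2, version 2.0.4 per the submitters' processing notes), called peaks in each IP library against its input with MACS2 and kept peaks on mRNA exons. The column names are those of an older MACS, so the caller's version is uncertain. Fold enrichment, as deposited, is the IP signal as a ratio to the input background, the deposited score is minus 10 times log10 of the p-value, and the authors' false discovery rate is in percent. It ran from 7.52% to 78.25% over member peaks, with 47 of 81 under 20%. A deposited table of the authors' own differential sites (fold changes and p-values from diffReps) was not used. The files used hold no read counts, so depth and counting error are unknown. The number of per-sample columns without a sample was 0.

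The peaks of the 4 libraries were joined where they overlapped by at least 1 bp, and the highest peak of a library gave its value. log2 fold enrichment in regions with 4 peaks was compared with limma 3.58.1 (trend, Benjamini-Hochberg adjustment) in R 4.3.3, without a replicate block. Values per library were compared with exact two-sided permutation tests. Positions came from the longest coding transcript in GENCODE M21, which placed 77 of 81 member peaks, and exon numbers from RefSeq GRCm38.p6 with Python 3.11.15 and pysam 0.24.0. Starts are counted from 1. The scripts were tested on simulated data. Whether replicates of the same number were handled together is not given in the sources used here, and the libraries were treated as unpaired. The differences between replicates 1 and 2 correlated at −0.02 between the groups over 2257 regions, which cannot settle this. A fit with a replicate block is given below. All 10 genes are named with their regions, and other genes only by counts and by the region with the largest difference between groups that do not overlap. Further genes of the lists were named after their values were seen, where a small count fell on them or their values were set beside that region. The members and gene lists were chosen with earlier results of these data known. Alternatives were a minimum of 4-fold, lists of equal length, another gene assignment, overlap, scaling or summary, other windows, DRACH in place of GGAC, a replicate block and leaving out each library.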

Additional observations from a re-analysis of the deposited data

How the results depend on the processing

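Few libraries, and no depths, limit these results. The difference in member peaks per library, 0.5, lay between −2 and 3 when 1 library was left out, and the median log2 fold enrichment, 0.25, lay between −0.029 and 0.52. That median difference was also −0.048 over regions with 4 peaks and −0.010 after subtracting each library's median. The share near the stop codon differed by −7.32 percentage points at 200 nt either side. This came from 1 and 2 peaks in control replicates 1 and 2, and 0 in either starved library. Over all placed peaks that share was 20.3% to 21.3% in each library. The share with GGAC differed by −4.72 percentage points in windows of 100 nt, and the causes were not tested. Regions in both libraries of 1 group alone numbered 1 in starved and 2 in control MEFs. They numbered 3 and 1 with peaks of at least 4-fold, 3 and 1 with lists of equal length, and 2 in starved MEFs with a stricter overlap, 0.5 of the shorter peak. With 1 library left out they ranged from 2 to 8 in starved MEFs and from 3 to 7 in control MEFs, where the group that lost a library needed 1 peak only. No share over all regions stands beside these alternative counts. Leaving out 1 library, differences at single regions ranged from 0.61 (without control replicate 1) to 1.71 (without control replicate 2) for Fgfr1, from −0.067 (without control replicate 1) to 1.13 for Ddr2, from −1.43 to 0.36 (without control replicate 1) for Pdgfrb, from −2.27 to 0.12 (without control replicate 2) for Met, from −3.18 to 0.83 (without starved replicate 2) for Pdgfra exon 22 and from −0.77 to 0.31 (without starved replicate 2) for Ror2. For Met there was no value without starved replicate 1, whose peak joined the others of the region. The Ror2 difference, −0.55 from the highest peak of each library, was −0.012 with a length-weighted mean of several peaks. The Pdgfra 3′ UTR ranged from −0.48 to 0.69, was −0.22 without starved replicate 1 and was −0.11 when centred. With all 4 libraries kept, limma called 0 member regions under every alternative, and 0 had an unadjusted p under 0.05. With the replicate block the differences were unchanged, at 0.5 peaks and 18.3 percentage points for GGAC (exact sign-flip p = 0.5), and limma called 13 of all 2257 regions instead of 2 and 0 members. Without any 1 library limma called 0 of all regions. Placement by summit was not run, as no summit was read from the lists.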
